A study of Homo sapiens with 4 samples.

Results

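MHC class I antigen processing was followed through 10 genes, B2M, TAP1, TAP2, TAPBP, PSMB8, PSMB9, HLA-E, HLA-F, ERAP1 and ERAP2, in the human bladder cancer line UM-UC-3. They were measured by every probe set that the platform annotation assigns to exactly 1 of these symbols, which gave 29 of the 41091 probe sets with a single gene symbol, and 10 of 19775 genes. Arrays were Affymetrix HG-U133 Plus 2.0, and values are log2 expression after RMA, in which 1 unit is a 2-fold change. Each probe set is a group of short probes against a transcript, so levels of different probe sets are not compared with each other.

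There were 4 arrays, 2 per group. GFP cells, the control, had received an empty GFP vector together with pBABE PURO, a plasmid used for selection, and GFP-RhoGDI2 cells carried a fusion of GFP to RhoGDI2, the protein that ARHGDIB encodes. Both were stably transfected, sorted by fluorescence and in log phase growth when RNA was taken. Preparations A and B were made at different times and pair the groups. For the GFP-RhoGDI2 samples the description text is that of a control transfection, while title, source and genotype name the fusion, and these were used. No source used here says whether A and B were separate transfections, so p-values cover only these preparations. They set the group difference against its variation from A to B. That variation had 1 residual degree of freedom, and the estimate borrowed more, 4.71, from the other probe sets. A difference that arose when the cells were made cannot be told apart from one due to the introduced gene. In these bulk RNA samples, fewer expressing cells and less RNA per cell cannot be told apart either.

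Cytosolic proteins are cut into peptides by the proteasome, whose inducible catalytic subunits include those encoded by PSMB8 and PSMB9. TAP1 and TAP2 form the transporter that carries the peptides into the endoplasmic reticulum, where the aminopeptidases ERAP1 and ERAP2 trim them and tapasin, the product of TAPBP, loads them onto class I heavy chains paired with beta-2-microglobulin, the product of B2M. Many of these genes are induced by interferons in many tissues, and tumours can lose their expression. HLA-E and HLA-F are non-classical class I heavy chains, and HLA-E is also a ligand of inhibitory receptors of natural killer cells.

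The introduced gene was checked first: the highest-mean ARHGDIB probe set read 6.51 and 6.27 in GFP and 11.94 and 11.58 in GFP-RhoGDI2, 41.3-fold higher (adjusted p = 8.49e-05 by limma). Its other probe sets were 1.92-fold higher (adjusted p = 0.00794) and at -0.02 (adjusted p = 0.953). Probe sets were tested where their mean over the 4 arrays reached 4.637, the median of that mean over 54613 probe sets, which left 27307. With limma, preparation as a block and Benjamini-Hochberg adjustment over all of them, 2085 passed an adjusted p of 0.05 and are named as called here. Array medians lay between 4.624 and 4.647. Of 13 bladder carcinoma line markers, 6 passed the filter (KRT7, KRT8, KRT18, GATA3, VIM and CDH2), and EPCAM, CDH1, KRT19 and the uroplakin genes UPK1A, UPK1B, UPK2 and UPK3A were below it. In the GFP-RhoGDI2 line KRT8 fell by 1.23, KRT18 fell by 0.59 and CDH2 rose by 0.68. Of 14 leukocyte markers on the array, 12 were below the filter, PTPRC between 3.09 and 3.59 among them, and the list's summed log2 level was 54.65 to 54.7 in GFP and 54.72 to 55.39 in GFP-RhoGDI2. Of 10 fibroblast and endothelial markers, 8 were below the filter and 0 were called, also with 0 at an unadjusted p under 0.05. The part of these markers in the results was not tested.

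The promoters of these genes are shown because interferon response elements are the sequence feature for which the pathway is known. In the RefSeq promoter table (GRCh38.p14), 9 of the 10 genes had at least 1 window of 300 bases, from 250 bases before to 50 after an annotated start, and there were 13 windows in all. The core of the interferon-stimulated response element, GAAA, any 2 bases and GAAA again, was searched on both strands. They occurred in 8 of the 13 windows, 1 for each of PSMB8, TAP1, TAP2, TAPBP, ERAP1, ERAP2, B2M and HLA-F, against 3.57% of the 35116 windows in the table. PSMB9 starts 488 bases from TAP1 on the opposite strand, and its own window held no match. The stretches below run 5′ to 3′ on the strand of the gene, with the matches in capitals.
PSMB8: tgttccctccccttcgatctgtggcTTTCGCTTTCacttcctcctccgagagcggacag
TAP1: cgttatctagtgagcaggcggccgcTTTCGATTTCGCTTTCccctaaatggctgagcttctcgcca
TAP2: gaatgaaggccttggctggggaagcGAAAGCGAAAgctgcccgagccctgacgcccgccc
TAPBP: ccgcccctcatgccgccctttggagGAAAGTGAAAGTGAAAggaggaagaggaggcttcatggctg
ERAP1: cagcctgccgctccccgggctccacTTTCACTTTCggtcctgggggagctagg
ERAP2: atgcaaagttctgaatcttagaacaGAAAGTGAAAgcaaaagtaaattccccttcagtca
B2M: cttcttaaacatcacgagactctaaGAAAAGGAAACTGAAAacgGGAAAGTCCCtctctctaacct
HLA-F: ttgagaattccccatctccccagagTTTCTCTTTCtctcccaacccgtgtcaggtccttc
The PSMB8 stretch is chr6:32844018-32844076 on the minus strand, around the more downstream of 2 annotated starts, and the window of the other start held no match. The TAP1 stretch is chr6:32853798-32853863 and the TAP2 stretch chr6:32838763-32838822, both minus strand. The TAPBP stretch is chr6:33314058-33314123 on the minus strand. ERAP1 lies at chr5:96807916-96807968 on the minus strand and ERAP2 at chr5:96876445-96876504 on the plus strand. The B2M stretch is chr15:44711348-44711413 and the HLA-F stretch chr6:29723253-29723312, both plus strand. TAP1, TAPBP and B2M held 2 overlapping matches each. A classical NF-kappaB site, also searched on both strands, is the second run of capitals in B2M, without overlap with the first, and it also occurred in the TAP1 window, outside the stretch shown. Of all windows, 0.191% held it. These are matches of letters in the reference genome and not measured sites.

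Of the 29 member probe sets, 21 passed the filter, at least 1 for each gene. PSMB8 was lower in the GFP-RhoGDI2 line, and it was the only called member: 1 of 21, against 7.64% of all probe sets tested (3.01% called lower and 4.63% higher). A share this close to the background is not a result about the members as a group. By highest-mean probe set, 1 of the 10 genes was called, beside 8.17% of 12123 genes (3.35% lower and 4.83% higher). At an unadjusted p under 0.05 there were 7 of the 21, 6 lower and 1 higher, where 26.7% of all probe sets tested were. The groups did not overlap in 12 of the 21, 9 lower and 3 higher, where that held for 52.1% of all. The median difference of the 21 was -0.0221, beside -0.0103 over all probe sets tested, and the median absolute differences were 0.174 and 0.145. For preparation B against A, limma called 0 of the 21 and had 0 at an unadjusted p under 0.05; over all probe sets it called 0 and had 11.4% at that p.

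**Figure D1:**
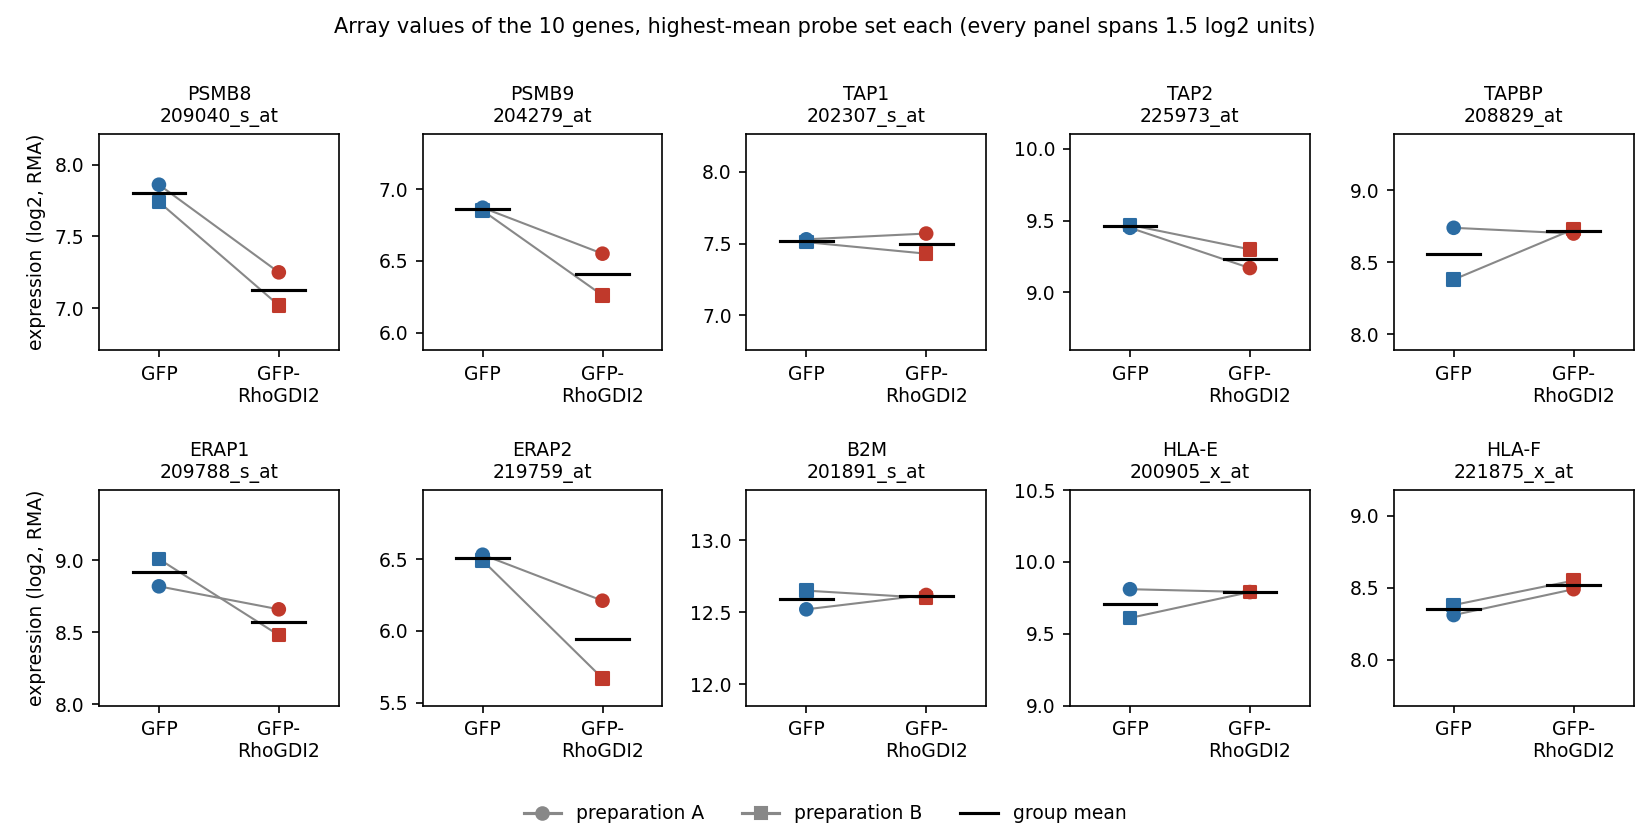
Log2 expression (vertical axes, each spanning 1.5 units) of the highest-mean probe set of each gene on the 2 GFP arrays (blue) and the 2 GFP-RhoGDI2 arrays (red), with lines joining the arrays of preparation A (circles) and B (squares) and black bars at group means. PSMB8 is lower in both preparations, from 7.86 and 7.74 to 7.25 and 7.02, while TAP1 stays between 7.43 and 7.57.

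Of the inducible proteasome subunit genes, PSMB8 fell in the GFP-RhoGDI2 line and PSMB9 and PSMB10 were not called. PSMB8, whose product replaces the constitutive subunit of the gene PSMB5 and carries the chymotrypsin-like activity, read 7.86 (A) and 7.74 (B) in GFP and 7.25 (A) and 7.02 (B) in GFP-RhoGDI2, the order used for all values below. Both GFP arrays were above both GFP-RhoGDI2 arrays, and the difference was -0.61 in preparation A and -0.72 in B. The fitted difference was -0.66 (SE 0.0945, 95% interval -0.90 to -0.43), or 63.1% of the GFP level, with an adjusted p of 0.0183 by limma with Benjamini-Hochberg adjustment. The call was lost when any 1 array was left out of a fit without the block, where the difference was -0.61 (adjusted p = 0.0971) when GFP A was left out and -0.72 (0.0527) for GFP B. Leaving out the GFP-RhoGDI2 arrays gave -0.78 (0.0634) for A and -0.55 (0.153) for B. The gene has a single probe set, of the class ending in _s_at that can match several transcripts.

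PSMB9, whose product replaces the subunit encoded by PSMB6, read 6.87 and 6.85 in GFP and 6.55 and 6.26 in GFP-RhoGDI2. The groups did not overlap, and the GFP-RhoGDI2 B array was the lowest. The difference of -0.45 (95% interval -0.72 to -0.18) missed the threshold in limma at an adjusted p of 0.0653. It was called with an intensity trend in the prior variance (0.0117), after median centring of the arrays (0.0333) and in a fit of gene means (0.021). Without the block (0.106), after quantile renormalization (0.0674) and with robust moderation (0.0685) it was not. With 1 array left out it ran from -0.60 to -0.302. The fit of gene means called 2031 of 12123 genes, and PSMB8, PSMB9 and ERAP2 were the 3 members called. The remaining inducible subunit gene, PSMB10, was at 6.94 and 6.87 in GFP and 7.16 and 7.0 in GFP-RhoGDI2, a difference of 0.18 (95% interval -0.05 to 0.41; adjusted p = 0.290).

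Among the constitutive counterparts, PSMB5 differed by 0.04 (95% interval -0.19 to 0.27). PSMB6 read 12.04 and 11.94 in GFP and 11.72 and 11.54 in GFP-RhoGDI2, a difference of -0.36 that missed the threshold (adjusted p = 0.0756). PSMB7, the counterpart of PSMB10, had probe sets that disagreed in size: the highest-mean one differed by -0.23 (adjusted p = 0.190) and another fell by 0.62 (adjusted p = 0.0275; 0.0572 without the block). Over the list of 13 constitutive core subunit genes tested, limma called 0 by highest-mean probe set, with 1 at an unadjusted p under 0.05, and the median was -0.0154. PSMB10 and the tested activator and assembly genes, 6 in all, had a median of 0.0109, again with 0 called and 0 at an unadjusted p under 0.05.

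TAP1, which encodes one chain of the transporter, read 7.53 and 7.51 in GFP and 7.57 and 7.43 in GFP-RhoGDI2, with overlapping groups. Its difference was -0.02 (95% interval -0.26 to 0.21; adjusted p = 0.909), and the interval does not reach the difference measured for PSMB8. TAP1 and PSMB9 start close to each other on opposite strands, and their intervals overlap from -0.26 to -0.18. The difference between them was not tested.

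TAP2 had 3 tested probe sets, all lower in the GFP-RhoGDI2 line in both preparations and none called. The highest-mean one read 9.45 and 9.47 in GFP and 9.17 and 9.30 in GFP-RhoGDI2, a difference of -0.22 (95% interval -0.46 to 0.01; adjusted p = 0.202). The other pair differed by -0.27 and -0.28 (adjusted p = 0.133 and 0.178). Groups did not overlap in any of the 3. They target the same gene and come from the same arrays, so they are not replicates. A fit of the mean of its tested probe sets gave TAP2 a difference of -0.26 (SE 0.0817, adjusted p = 0.0714).

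TAPBP, encoding tapasin, showed no difference larger than the spread between arrays. Its highest-mean probe set read 8.74 and 8.38 in GFP and 8.70 and 8.73 in GFP-RhoGDI2, with the GFP B array alone low and a difference of 0.15 (95% interval -0.15 to 0.45), or -0.03 without that array and the block. The other tested probe set differed by 0.01 (95% interval -0.21 to 0.24), and by -0.00429 after quantile renormalization. TAPBPL, which encodes the related peptide editor TAPBPR, fell on both of its probe sets. The higher one read 7.24 and 7.32 in GFP and 6.84 and 6.77 in GFP-RhoGDI2 (difference -0.47, adjusted p = 0.0453) and the other differed by -0.43 (adjusted p = 0.0493). Both calls were lost without the block (adjusted p = 0.0555 and 0.0676).

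TAPBPL was the 1 called gene among 11 tested chaperones and translocon genes of peptide loading, beside 8.17% of all genes. The median of the 11 was 0.0356. In limma 2 of them had an unadjusted p under 0.05, beside 26.7% of all probe sets tested. The lectin chaperone genes CALR and CANX and the disulfide isomerase gene PDIA3, which work in the loading complex, differed by 0.16, 0.05 and 0.21 at their highest-mean probe sets (adjusted p = 0.315, 0.766 and 0.222). Another PDIA3 probe set rose by 0.51 (adjusted p = 0.0475), and another CALR probe set was at 0.39 (adjusted p = 0.0689).

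The aminopeptidase genes had lower values on most probe sets, with none called in the reported fit. ERAP2 at its highest-mean probe set read 6.53 and 6.49 in GFP and 6.21 and 5.67 in GFP-RhoGDI2. The GFP arrays lay close together and the GFP-RhoGDI2 B array was far the lowest. The difference was -0.57 (SE 0.140, 95% interval -0.91 to -0.22, adjusted p = 0.0699 by limma), -0.31 in preparation A and -0.82 in B. It was called with an intensity trend (0.00577) and after median centring (0.0279). Without the block (0.127), after quantile renormalization (0.0811) and with robust moderation (0.0739) it was not. In fits without the block it was called when GFP-RhoGDI2 A was left out, at -0.84 (adjusted p = 0.0458), and it was -0.30 when GFP-RhoGDI2 B was (adjusted p = 0.376).

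Another ERAP2 probe set had the opposite order of preparations, with -0.64 in A and -0.07 in B (difference -0.36, adjusted p = 0.203). The third was at 0.20 in A and -0.33 in B, with overlapping groups and a fitted difference of -0.07. The probe sets of ERAP2 therefore disagreed on which preparation carried the difference. The mean of the 3 gave -0.33 (SE 0.0863, adjusted p = 0.0409 in a fit by gene means, where 2031 of 12123 genes were called).

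ERAP1, the companion trimming enzyme, read 8.82 and 9.01 in GFP and 8.66 and 8.48 in GFP-RhoGDI2 at its highest-mean probe set. The groups did not overlap, and the difference of -0.34 (95% interval -0.64 to -0.05, adjusted p = 0.141 by limma) was larger in preparation B (-0.52) than in A (-0.16). It was called with an intensity trend (0.0158) and with a filter at the upper quartile of means (0.045). Without the block (0.17), after median centring (0.0982) and with robust moderation (0.146) it was not. Another probe set was at -0.24 (adjusted p = 0.256) and the last, near the filter level, at 0.07 (adjusted p = 0.724). Of 8 other tested genes of cytosolic and other peptidases, limma called 0, with 3 at an unadjusted p under 0.05. Among those 3, TPP2 was at -0.29, and NPEPPS and IDE were both at 0.27. LNPEP, also on that list, was not tested.

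**Figure D2:**
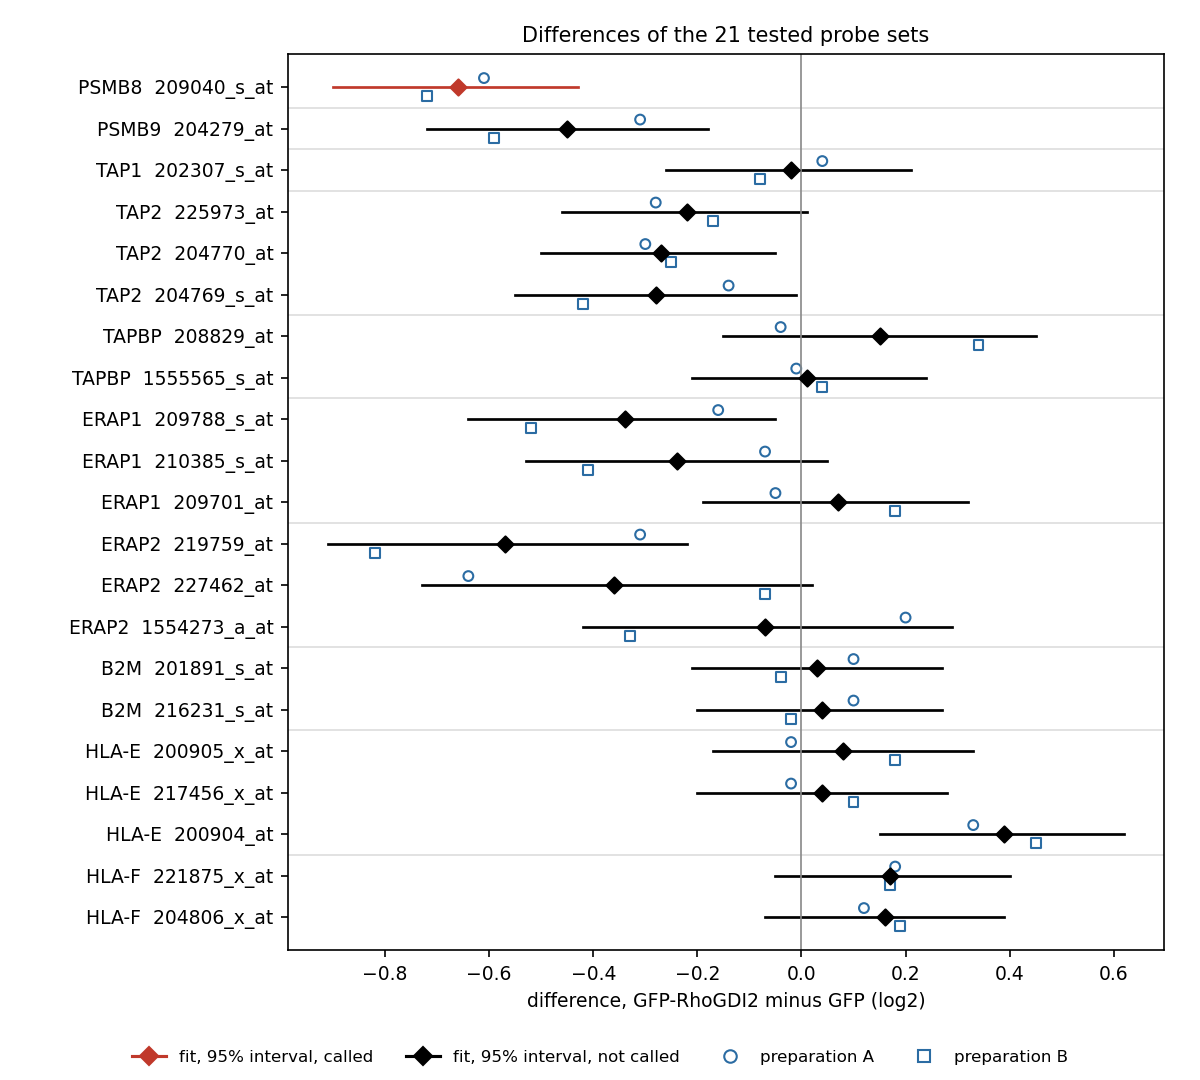
Differences, GFP-RhoGDI2 minus GFP on the log2 scale (horizontal axis), of the 21 tested probe sets, with diamonds and bars for the fit and its 95% interval (red where called) and open circles and squares for preparations A and B. The PSMB8 interval runs from -0.90 to -0.43, and the B2M, TAP1 and TAPBP intervals span 0.

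B2M, the light chain of every classical class I molecule, read 12.52 and 12.65 in GFP and 12.62 and 12.60 in GFP-RhoGDI2. The groups overlapped, and the difference was 0.03 (95% interval -0.21 to 0.27; adjusted p = 0.883), or 102% of the GFP level. The other tested probe set was at 0.04 (95% interval -0.20 to 0.27). Its sign turned after quantile renormalization (-0.01), as did that of the first (-0.03).

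HLA-E was at higher values on the 1 probe set of its 3 that is not of the _x_at class. That probe set read 7.21 and 7.18 in GFP and 7.54 and 7.63 in GFP-RhoGDI2, without overlap, and its difference of 0.39 (SE 0.0954, 95% interval 0.15 to 0.62) missed the threshold at an adjusted p of 0.0688. It was called with an intensity trend (0.0134), with a filter at the upper quartile of means (0.0135) and after median centring (0.0430). Without the block (0.0916), after quantile renormalization (0.0819) and with robust moderation (0.0701) it was not. The mean of the 3 HLA-E probe sets gave 0.17 (adjusted p = 0.224 by limma). The highest-mean probe set read 9.81 and 9.61 in GFP and 9.79 and 9.79 in GFP-RhoGDI2, a difference of 0.08, and the third differed by 0.04; in both, the groups overlapped. Probe sets ending in _x_at hold probes that can match other sequences, and class I heavy chain genes are near-identical over long stretches, so the gene behind the latter values is uncertain.

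HLA-F read 8.31 and 8.38 in GFP and 8.49 and 8.55 in GFP-RhoGDI2 at its highest-mean probe set and was at 0.17 (95% interval -0.05 to 0.40; adjusted p = 0.291). The second was at 0.16 (adjusted p = 0.341). Both are of the _x_at class, and in both the groups did not overlap. HLA-F-AS1, an antisense gene of that locus, was at 0.19 (adjusted p = 0.262).

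The other heavy chains had values of the same size. HLA-B, HLA-C, HLA-G and the pseudogene HLA-J were the 4 tested of the heavy chain list, with differences of 0.15 to 0.22, a median of 0.184 beside -0.0134 over all genes tested, and 0 called by limma, also with 0 at an unadjusted p under 0.05 by highest-mean probe set. Other probe sets were at 0.24 for HLA-B (unadjusted p = 0.0462, adjusted 0.179 by limma) and 0.26 for HLA-C (0.0343 and 0.153). HLA-B read 10.60 and 10.51 in GFP and 10.79 and 10.77 in GFP-RhoGDI2 (difference 0.22, adjusted p = 0.206), and HLA-C 10.50 and 10.39 against 10.58 and 10.69 (0.19, adjusted p = 0.296). All 4 are represented by _x_at probe sets and can share probes, so their similar values are not independent. Among 6 tested class I-like genes, ULBP2, a stress-induced ligand of the activating receptor NKG2D, was the 1 called, beside 8.17% of all genes. ULBP2 fell from 6.19 and 6.32 to 5.65 and 5.55 (difference -0.65, adjusted p = 0.0242 by limma), while another of its probe sets was at -0.07 (adjusted p = 0.676).

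Of the 8 member probe sets below the filter, which were not tested, 1 belonged to each of B2M, TAP2, TAPBP and HLA-F and 2 to each of ERAP1 and ERAP2. Their means lay between 2.93 and 4.39 and their differences between -0.24 and 0.12. No detection calls were used, so these are levels near the low end of the scale.

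Among regulators known to act on class I promoters, 1 was called. RFX5, a subunit of the complex that binds the X box of class I and class II promoters, rose from 9.28 and 9.10 to 9.96 and 9.99. Both GFP-RhoGDI2 arrays were higher, and the difference was 0.78 (SE 0.101, adjusted p = 0.0139), a 1.72-fold rise. Its other probe set rose too, by 0.64 (adjusted p = 0.0191). RFX5 was the 1 called among 14 tested regulators, beside 8.17% of all genes. The median of the 14 was -0.0446. In limma 3 of them had an unadjusted p under 0.05, beside 26.7% of all probe sets tested. NLRC5, the transactivator that works with the RFX complex at class I genes, lay below the filter at 4.17, 3.86, 4.16 and 4.18, in the order GFP A, GFP B, GFP-RhoGDI2 A and B. IRF1, which binds interferon response elements, was at 6.57 and 6.37 in GFP and 6.21 and 6.31 in GFP-RhoGDI2 (difference -0.21, adjusted p = 0.290), with another probe set at 0.01. NFKB1 was at -0.39 (adjusted p = 0.0711).

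Interferon receptor and JAK-STAT genes had a median of 0.133 over 13 tested. By highest-mean probe set 1 was called, beside 8.17% of all genes. In limma 2 had an unadjusted p under 0.05, beside 26.7% of all probe sets tested. IRF9, the DNA-binding subunit of the factor that recognises the interferon-stimulated response element, rose from 6.31 and 6.60 to 6.97 and 7.37 (difference 0.72, adjusted p = 0.0148), which missed the threshold without the block (0.0604). The kinase gene JAK1 had probe sets on both sides of the threshold: the highest-mean one was at 0.49 (adjusted p = 0.0791), and the other tested ones rose by 0.76 (adjusted p = 0.0175) and 0.55 (adjusted p = 0.0392). The interferon gamma receptor gene IFNGR1 was at 0.22 (adjusted p = 0.216). Of 20 tested interferon-stimulated genes, 2 rose, IRF9 and SAMD9, and 3 fell, IFI44, DDX60 and HERC6, with a median of -0.106, beside 8.17% of all genes called. At an unadjusted p under 0.05 there were 9 of the 20 genes. The share of all probe sets tested was 26.7%, and that over genes was not computed. Without the block, the call of IFI44 was kept and those of IRF9, SAMD9, DDX60 and HERC6 were lost (adjusted p = 0.0604, 0.0889, 0.207 and 0.0873). IFI44 fell from 6.96 and 7.23 to 6.25 and 6.32, a difference of -0.81 (adjusted p = 0.0129; 0.0180 without the block).

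**Figure D3:**
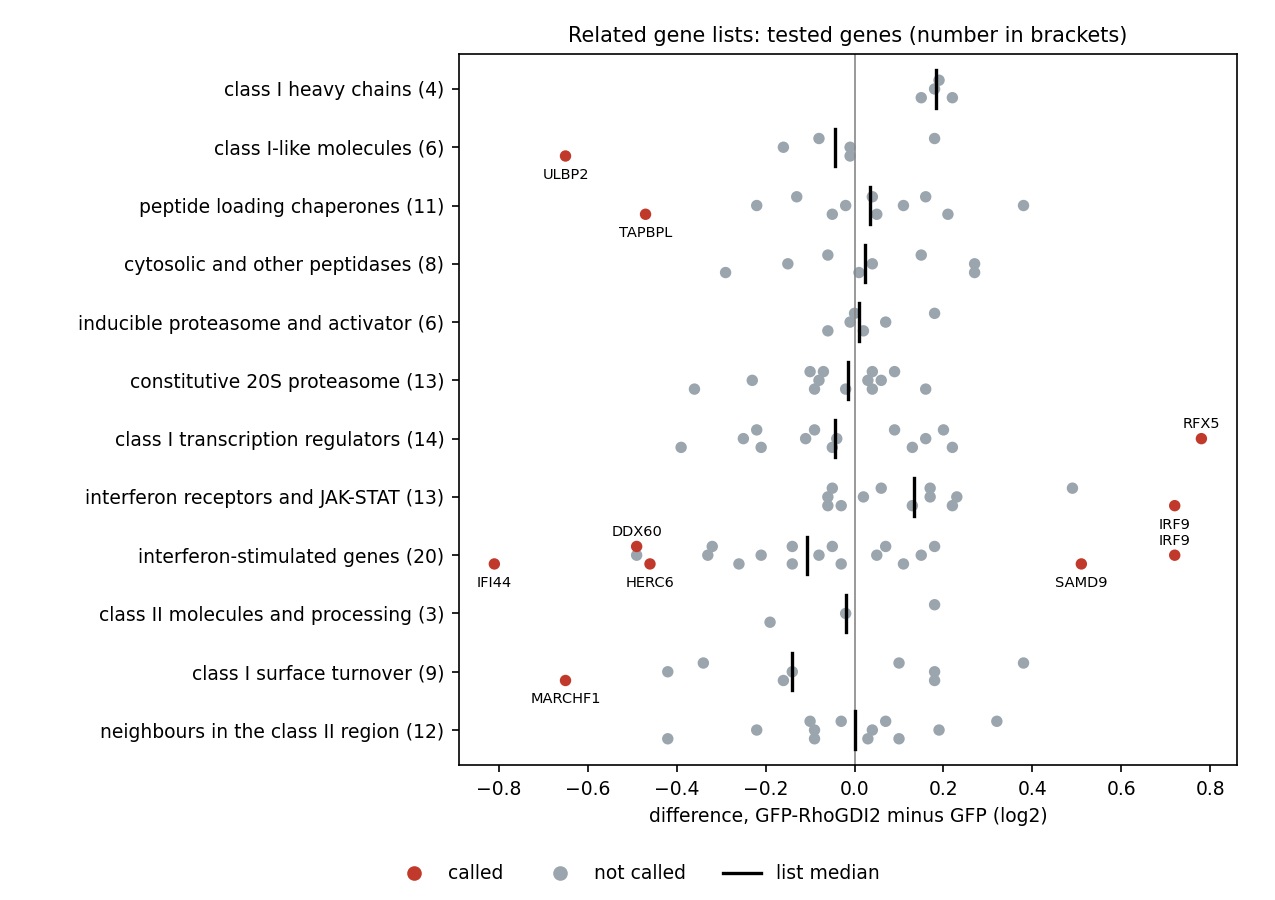
Differences, GFP-RhoGDI2 minus GFP on the log2 scale (horizontal axis), of the tested genes of each related list (number tested in brackets), at their highest-mean probe set, with red points for called genes and black lines at list medians. The medians of the 12 lists plotted, which leave out the cell type markers, lie between -0.14 and 0.184, and RFX5 at 0.78 is the called gene of the class I regulators.

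TAP2, PSMB8, TAP1 and PSMB9 neighbour each other within the class II region of the RefSeq annotation, flanked by HLA-DOB and HLA-DMB. HLA-DOB was below the filter, and HLA-DMB was at 0.18 (95% interval -0.06 to 0.42). The antisense gene PSMB8-AS1, which overlaps PSMB8, lay between 3.03 and 3.71 on its probe sets, below the filter. Of 12 tested genes nearby, around TAPBP and in the extended class II region, limma called 0, with 2 at an unadjusted p under 0.05 and a median of 0.00173. Of 3 tested class II molecules and processing genes 0 were called, also at an unadjusted p under 0.05. Among 9 tested genes of membrane protein ubiquitination and degradation, MARCHF1, a ubiquitin ligase of surface immune receptors, fell from 5.86 and 6.43 to 5.42 and 5.57 (difference -0.65, adjusted p = 0.0396; 0.106 without the block), and its other tested probe set was at -0.29 (adjusted p = 0.120). It was the 1 called of the 9, beside 8.17% of all genes. At an unadjusted p under 0.05 there were 4 of the 9 genes, and 26.7% of all probe sets tested.

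The genes whose 4-array pattern lay nearest to that of PSMB8 were FNBP1, PALB2 and ERO1B, at root mean square distances of 0.0244, 0.0295 and 0.0325 log2 units between values centred on each gene's own mean. FNBP1 was at -0.62, PALB2 at -0.61 and ERO1B at -0.61. The ranking was over 12113 genes and rests on 4 arrays, so it is a description only.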

How the data were processed

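The deposited values are log2 expression per probe set, which the authors computed by RMA, as the submitters' processing notes name it. No source used here gives the program or the set of arrays processed together. RMA brings arrays to a common distribution and hides shifts shared by most genes. Of 54675 probe sets, 62 controls were left out.

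From these values, limma 3.58.1 in R 4.3.3 fitted GFP-RhoGDI2 minus GFP with preparation as a block, because the labels state the pairing. The A to B changes of the groups correlated at 0.264 over tested probe sets. The fit had 1 residual degree of freedom, and moderation added 4.71 (prior SD 0.101). The script was tested on simulated data. Gene counts use each gene's highest-mean single-gene probe set. No detection calls were used, and the number of arrays limits the precision.

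Described in full were each member's highest-mean probe set and any called member. Of each list, the called genes with the largest differences were named, at most 4 (HERC6 was added to complete a count), besides ARHGDIB, NLRC5, IRF1, HLA-B and HLA-C, and the 3 patterns nearest to the called member. Other probe sets and genes with values were named after their values were seen. The members and lists were chosen with earlier results of these data known. Alternatives were no block, each array left out, other filters, moderation, scaling, probe classes and thresholds, and gene means. Promoter windows and neighbours came from RefSeq tables (GRCh38.p14), and the deposited values carry no coordinates.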

Additional observations from a re-analysis of the deposited data

How the results depend on the processing

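The pairing by preparation comes from the labels. Without the replicate block, PSMB8 stayed the 1 called member (adjusted p = 0.0308), while the count over all probe sets went from 2085 to 1284, over genes from 991 to 641 and over all lists, cell type markers included, from 12 to 6. The mean of each gene's probe sets gave 2031 called genes, 3 of them members. With 1 array left out, 0 to 1 member and 422 to 909 probe sets were called; these fits have no block and fewer samples, and the lone array of a group is assumed to vary like the other group.

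The count of called members was 3 (of 12 tested) with a filter at the upper quartile, where 3435 of all 13654 probe sets tested were called. It was 5 of 21 with an intensity trend and 4 of 21 with median centring, beside 5721 and 3395 of 27307. Without probe sets of the _s_at and _x_at classes, where PSMB8 itself is left out, it was 0 of 9, beside 1340 of 16775. At an adjusted p of 0.01 the counts were 0 of 21 and 447 of 27307, and at 0.10 they were 4 and 4264. In these settings the member count was above 1 where the count over all probe sets rose, and 0 where it fell. That did not hold everywhere. Without the block the member count stayed at 1 while the count over all probe sets fell from 2085 to 1284. The further members called were among PSMB9, HLA-E, ERAP1 and ERAP2. For the differences between these counts the cause was not tested.

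Of 294 values of single member probe sets over 15 settings, 263 kept direction and side of the threshold. A further 13 were called where the reported fit did not, 5 lost the call (all PSMB8) and 13 changed sign, none of them called. The difference itself can move only with an array left out, quantile renormalization, median centring or values floored at the filter level. The other settings keep its direction by design, so they say nothing about it. Under quantile renormalization the values that changed sign were B2M (-0.0305 and -0.014) and TAPBP (-0.00429). With 1 array left out, the probe sets that changed sign ranged from -0.0325 to 0.0892 and -0.0186 to 0.0951 (B2M), -0.0891 to 0.0448 (TAP1), -0.0134 to 0.043 and -0.0274 to 0.331 (TAPBP), -0.0204 to 0.177 and -0.00996 to 0.0893 (HLA-E), -0.0216 to 0.157 (ERAP1) and -0.258 to 0.122 (ERAP2).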
